A study of Danio rerio with 6 samples.

Results

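Of the acetylated regions called in a zebrafish primary melanoma, 9436 were narrow and far from those called in the melanoma cell line zcrest. Each lay 20000 bases or more from the nearest called region of the line. They are called far tumor peaks here. They were chosen from the list of peaks of H3K27ac (acetylation of histone H3 at lysine 27) in the tumor, as peaks under 800 bases wide whose nearest zcrest H3K27ac peak on the same chromosome was 20000 bases or more away, measured edge to edge. They made up 15.8% (exact 95% interval 15.5% to 16.1%) of the 59760 tumor peaks and 26.2% (25.8% to 26.7%) of the tumor peaks that overlapped no zcrest peak. The other 26516 tumor peaks without such an overlap are called other unshared tumor peaks. Of these, 26476 lay nearer than 20000 bases to a zcrest peak and 40 lay as far away but were 800 bases or wider. The remaining 23808 tumor peaks overlapped a zcrest peak.

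H3K27ac is laid down by the acetyltransferases p300 and CBP on nucleosomes beside active promoters and enhancers, and it is removed by histone deacetylases. Enhancers differ between cell types more than promoters do, and they often lie far from the promoters they act on. Several marked nucleosome stretches that follow each other at short distances, separated by nucleosome-poor gaps, are a common form of an active regulatory region.

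The tumor arose in a p53/BRAF/Na fish injected with the control plasmid MiniCoopR;mitf:EGFP, and was dissected in bulk, dissociated and trypsinized before crosslinking, so its list comes from all cells of the dissected tissue. The zcrest line was founded from a fish labelled p53/BRAF/Na; crestin:EGFP, MiniCoopR alone, and had been grown for more than 20 passages. A peak list of the transcription factor sox10 in the same line was also used. Each of these groups is 1 library from 1 source, without replicates and with unknown read depth, so all values describe these lists and no difference between them was tested. A region far from zcrest peaks is one without a called peak there, which does not show that the line lacks acetylation. Intervals on shares and densities are exact 95% intervals and cover counting error only. They treat peaks as independent, which neighbouring peaks are not, so they are too narrow, above all for shares of grouped peaks. Cell type markers of the tumor were not examined, and genes near the peaks were not analysed here.

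The positions of these peaks follow in part from the rule, since it fixes the distance to zcrest peaks and caps the width. Just inside the distance threshold were peaks at chr16:42325259-42325444 (20003 bases from the line peak), chr23:10194619-10194943 (20004) and chr17:26474233-26474483 (20005). Just outside it were peaks at chr12:9402802-9403004 (19998 bases), chr14:26923393-26923594 (19993) and chr23:20179093-20179340 (19992). At the width threshold, the widest far tumor peaks measured 799, 797 and 796 bases, at chr13:53103560-53104358, chr4:4519953-4520749 and chr7:27837364-27838159. The narrowest of the 40 excluded far peaks measured 800, 800 and 810 bases, at chr19:39798729-39799528, chr7:25928622-25929421 and chr20:23393332-23394141. All coordinates are 1-based on the Zv9 assembly.

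Far tumor peaks were spread thinly over a large territory. Bases that lie 20000 or more from any zcrest H3K27ac peak, called the line-free interior, added up to 741 Mb, or 54.7% of a total span of 1356 Mb. This interior held 12.7 far tumor peaks per Mb (12.48 to 12.99). The remaining 615 Mb held 81.8 tumor peaks per Mb, of which 43.1 per Mb were unshared. The density of far tumor peaks was thus 0.156 times that of tumor peaks nearer to zcrest peaks, and 0.296 times that of the unshared ones among them. Far tumor peaks covered 2.26 Mb, or 0.305% of the interior.

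Distances below run from the first value, included, to the second, excluded. Tumor peak density fell with distance from zcrest peaks and went on falling within the far territory. Measured by the summit of each tumor peak, of any width, it was 961 per Mb inside zcrest peaks, 182 per Mb under 1000 bases from one, 54.8 per Mb at 1000 to 5000 bases and 29.9 per Mb at 5000 to 20000 bases. In the far territory it was 17.8 per Mb (17.3 to 18.2) at 20000 to 50000 bases, 10.4 per Mb (9.95 to 10.8) at 50000 to 100000 bases and 6.93 per Mb (6.56 to 7.33) at 100000 bases or more. These territories include any assembly gaps and unmappable sequence, whose part in the decline was not tested. Of the far tumor peaks, 5872 lay under 50000 bases from a zcrest peak, 2297 at 50000 to 100000 bases and 1267 at 100000 bases or more. Their median distance was 40306 bases.

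**Figure D1:**
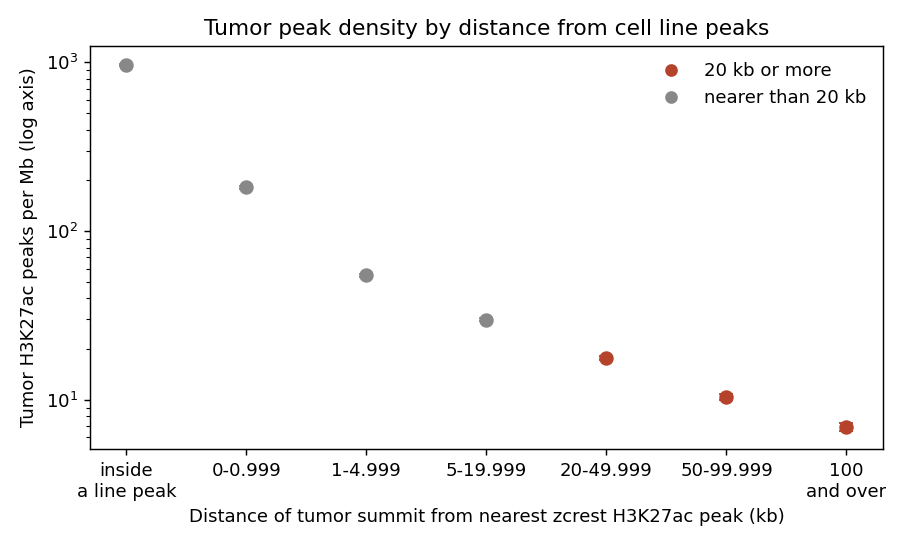
Tumor H3K27ac peaks per Mb (log axis) against the distance in kb of their summits from the nearest zcrest H3K27ac peak, with exact Poisson 95% intervals, mostly smaller than the points. Density was 961 per Mb inside zcrest peaks and declined at each step to 6.93 per Mb at 100000 bases or more, with the 3 red points marking the territory of far tumor peaks.

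The 5 far tumor peaks most remote from zcrest peaks were 149 to 234 bases wide. Their fold enrichments of 4.42 to 5.16 lay around the median of all far tumor peaks (4.68). On chromosome 12 a peak from 42183470 to 42183618, 149 bases wide with a fold enrichment of 4.71, lay 825422 bases from the nearest zcrest peak. Fold enrichment is the authors' value for each peak over the caller's own background. The next peak, from 42155522 to 42155685, lay 823680 bases away with a fold of 5.16. The others were at chr12:42030580-42030813 (698738 bases, fold 4.91), chr22:36850220-36850380 (594434 bases, fold 4.77) and chr12:41883064-41883243 (551222 bases, fold 4.42). The 4 on chromosome 12 came from the longest stretch without a zcrest peak, which ran from 41331842 to 43009040 and held 8 far tumor peaks in 1677 kb. None of the 5 belonged to a run, set as 3 or more far tumor peaks with no more than about 13 kb between neighbours.

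Gaps between neighbouring zcrest peaks, or between a chromosome end and its first or last zcrest peak, are called line-free stretches. Of 8696 stretches with any line-free interior, 3510 (40.4%) held at least 1 far tumor peak and 5186 held 0. Stretches with less interior than the narrowest tumor peak (147 bases) were not left out of this count. Of the 8696, 20 lay at chromosome ends, and 11 of those held 19 far tumor peaks. The median length was 122 kb for those with a far tumor peak and 67.1 kb for those without. Among the stretches between 2 zcrest peaks, a far tumor peak was present in 15.6% of those of 40 to 60 kb, in 37.9% of those of 60 to 100 kb, in 53.2% of those of 100 to 200 kb, in 67.8% of those of 200 to 400 kb and in 79.6% of longer ones. Per Mb of interior the order was the reverse, with 25.1, 21.8, 14.7, 10.6 and 6.12 far tumor peaks in the same classes. Assembly gaps and unmappable sequence stayed in the interior, and their part in this order was not tested.

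Far tumor peaks were unevenly shared among these stretches, which also differ in length. The part of length in this unevenness was not tested. In 1558 stretches a single one was found, and the median was 2 per stretch that held any. The 118 stretches with 10 or more held 1595 of them (16.9%), and the 351 fullest stretches held 34.3%. The fullest stretch, at chr16:26434561-26799986, contained 31 far tumor peaks in 365 kb, 24 of them in 4 runs. A stretch at chr5:42762864-43084065 contained 30, and one at chr23:25642499-25910077 contained 29, with 18 in a single run. Stretches at chr13:16962976-17392652, chr17:3753756-4092750 and chr8:17704674-18010004 contained 25 each. The interior of these stretches held between 64.2 per Mb, on chromosome 13, and 127 per Mb, on chromosome 23.

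All 25 chromosomes carried far tumor peaks, from 217 on chromosome 10 to 601 on chromosome 5. As a share of a chromosome's tumor peaks they ranged from 9.50% (8.42% to 10.7%) on chromosome 19 to 22.8% (21.0% to 24.6%) on chromosome 11, with a median of 15.9%. Chromosome 4 came next to chromosome 11 with 20.0%, and chromosome 10 next to chromosome 19 with 11.3%. Chromosome 19 had the most zcrest peaks per Mb (54.1) and the smallest interior (44.2% of its span). Chromosome 4 had the fewest zcrest peaks per Mb (22.1) and the largest interior (67.4%). Chromosome 11 had 28.3 zcrest peaks per Mb and an interior of 59.2%.

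Relative to the interior, the chromosomes took another order. Density per Mb of interior ranged from 9.20 on chromosome 2 to 17.1 on chromosome 11, followed by 17.0 on chromosome 23. Chromosome 19, last by share, stood at 11.6 per Mb. Far tumor peaks were found in 1310 of 1369 windows of 1 Mb (95.7%), and other unshared tumor peaks in 1326 (96.9%). The 10 fullest windows of each class held 3.57% of the far tumor peaks and 3.96% of the other unshared ones. The fullest window, at chr16:26000001-27000000, held 41 far tumor peaks. In the outer 10% of a chromosome at either end lay 21.6% (20.7% to 22.4%) of far tumor peaks, 20.2% (19.7% to 20.7%) of other unshared tumor peaks and 20.0% (19.5% to 20.5%) of tumor peaks on a zcrest peak.

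The average for chromosome 4 hid a contrast along it. Beyond 25 Mb, 101 of 263 tumor peaks (38.4%) were far tumor peaks, but they lay at 3.44 per Mb over 29.3 Mb of interior. In the first 25 Mb, 400 of 2237 (17.9%) were, at 32.0 per Mb over 12.5 Mb of interior. In runs were 8.91% of those beyond 25 Mb and 57.5% of those in the first 25 Mb. Both interiors include any assembly gaps and unmappable sequence, whose part in this contrast was not tested.

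**Figure D2:**
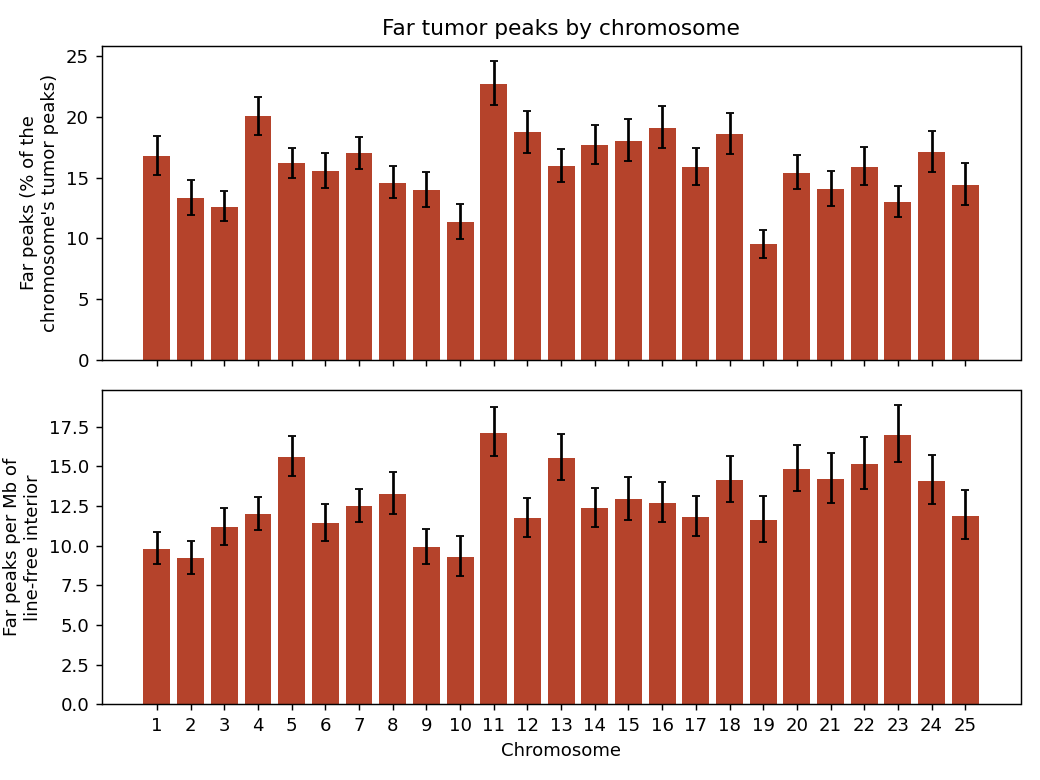
Far tumor peaks on each of the 25 chromosomes, as a share of that chromosome's tumor H3K27ac peaks (upper panel, %, exact binomial 95% intervals) and per Mb of line-free interior (lower panel, exact Poisson 95% intervals). Chromosome 11 is highest in both panels (22.8% and 17.1 per Mb), while chromosome 19 is lowest by share (9.50%) but not by density (11.6 per Mb).

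A smaller share of far tumor peaks than of other unshared tumor peaks lay in runs, in lists of unequal density. Of the 9436, 3512 (37.2%, 36.2% to 38.2%) lay in 789 runs, 1992 lay in pairs, and 3932 (41.7%) had no other far tumor peak within that distance. Of the other unshared tumor peaks, stitched in the same way among themselves, 66.3% (65.7% to 66.9%) lay in 2855 runs and 19.5% stood alone. Runs of 10 or more held 4.36% of far tumor peaks (411 in 31 runs) and 23.3% of other unshared tumor peaks (6167 in 391 runs). The part of density in these shares was not tested. Far tumor peaks lay at 12.7 per Mb of interior (78.5 kb per peak), and other unshared tumor peaks at 43.1 per Mb of the remaining span.

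The median distance to the nearest other tumor peak of any kind was 6421 bases for far tumor peaks and 1640 bases for other unshared tumor peaks. A tumor peak within about 13 kb was found for 61.9% (60.9% to 62.9%) of far tumor peaks and 92.2% (91.9% to 92.5%) of other unshared ones. A neighbour nearer than 500 bases was found for 17.8% (17.1% to 18.6%) of far tumor peaks and 29.0% (28.4% to 29.5%) of other unshared ones. These contrasts follow in part from the rule. Tumor peaks on a zcrest peak measured at most 3337 bases, so none could lie within about 13 kb of a far tumor peak. Nearly all other unshared tumor peaks lay under 20000 bases from a zcrest peak and could have such neighbours. The part of the rule in these contrasts was not tested. The share of far tumor peaks in runs was 39.9% at 20000 to 50000 bases from the line, 34.2% at 50000 to 100000 bases and 30.4% at 100000 bases or more. Tumor peak density fell over the same distances, and its part in this decline was not tested. By length of the stretch the share was 28.1% at 40 to 60 kb, 44.4% at 60 to 100 kb, 40.6% at 100 to 200 kb, 33.5% at 200 to 400 kb and 26.5% in longer ones. The rule excludes 20000 bases at each end, so the 2585 stretches of 40 to 60 kb held only 23.7 Mb of interior. The part of this limited room in these shares was not tested.

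**Figure D3:**
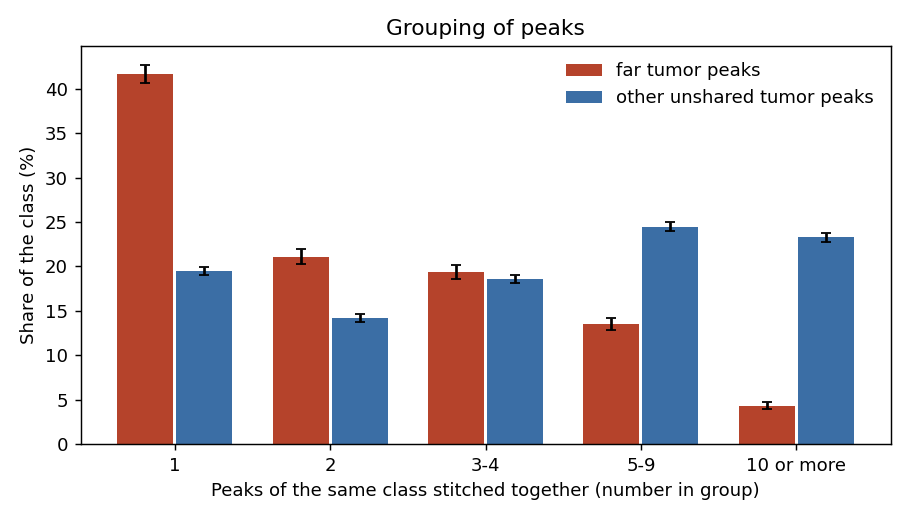
Share (%) of far tumor peaks (red) and of other unshared tumor peaks (blue) by the number of peaks of the same class stitched together at gaps of up to about 13 kb, with exact binomial 95% intervals. Groups of 1 hold 41.7% of far tumor peaks and 19.5% of the others, and groups of 10 or more hold 4.36% and 23.3%.

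The 789 runs were short and open. Their median span was 10.8 kb (quartiles 6.13 and 17.1 kb, longest 69.6 kb), their median size 4 far tumor peaks, and the median gap between neighbours had a median over runs of 2.81 kb. Peaks filled a median of 9.27% of a run. Runs lay in 697 line-free stretches, 79 of which held 2 or more, and in 311 runs the run held all far tumor peaks of its stretch. Of the 40 wide far peaks left out by the width limit, 33 lay within about 13 kb of a far tumor peak, and 11 runs had one of them inside.

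The fullest run, at chr11:43106647-43176196, held 19 far tumor peaks over 69.6 kb, which were all far tumor peaks of a stretch of 123 kb. Its fold enrichments ran from 2.18 to 7.89 with a median of 3.72, below the median of all far tumor peaks. The widest member, from 43142850 to 43143621, measured 772 bases with a fold of 7.06, and the highest fold, 7.89, belonged to a peak of 164 bases from 43140764 to 43140927. Both were in the middle of the run, and the peaks at its ends had folds of 2.91 and 2.60.

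Runs of 18 were found on chromosomes 4, 15 and 23. The chromosome 4 run, from 13090941 to 13147065, spanned 56.1 kb with a median fold of 5.30 and again held all far tumor peaks of its stretch. The chromosome 15 run, from 20727068 to 20768937, spanned 41.9 kb with a median fold of 6.29 and a highest fold of 11.5. Its members filled 14.4% of its length, and the median gap between them was 0.739 kb, the shortest of the 10 fullest runs. The chromosome 23 run, from 25851822 to 25887005, spanned 35.2 kb with a median fold of 4.86, and its stretch held 11 further far tumor peaks.

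The next 6 runs held 15 to 17 far tumor peaks. They lay at chr11:23125762-23171026 (17, median fold 6.94), chr23:24000384-24047601 (16, 4.52), chr11:35179275-35215453 (16, 5.65), chr4:15522552-15589480 (15, 5.87), chr4:22527955-22579306 (15, 4.65) and chr8:17948450-17987880 (15, 5.38). The first of these had the highest median fold of the 10 fullest runs and 1 wide tumor peak inside. Of the 31 runs of 10 or more, chromosomes 4 and 5 had 5 each and chromosome 11 had 4, and all 5 of chromosome 4 were in its first 25 Mb.

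**Figure D4:**
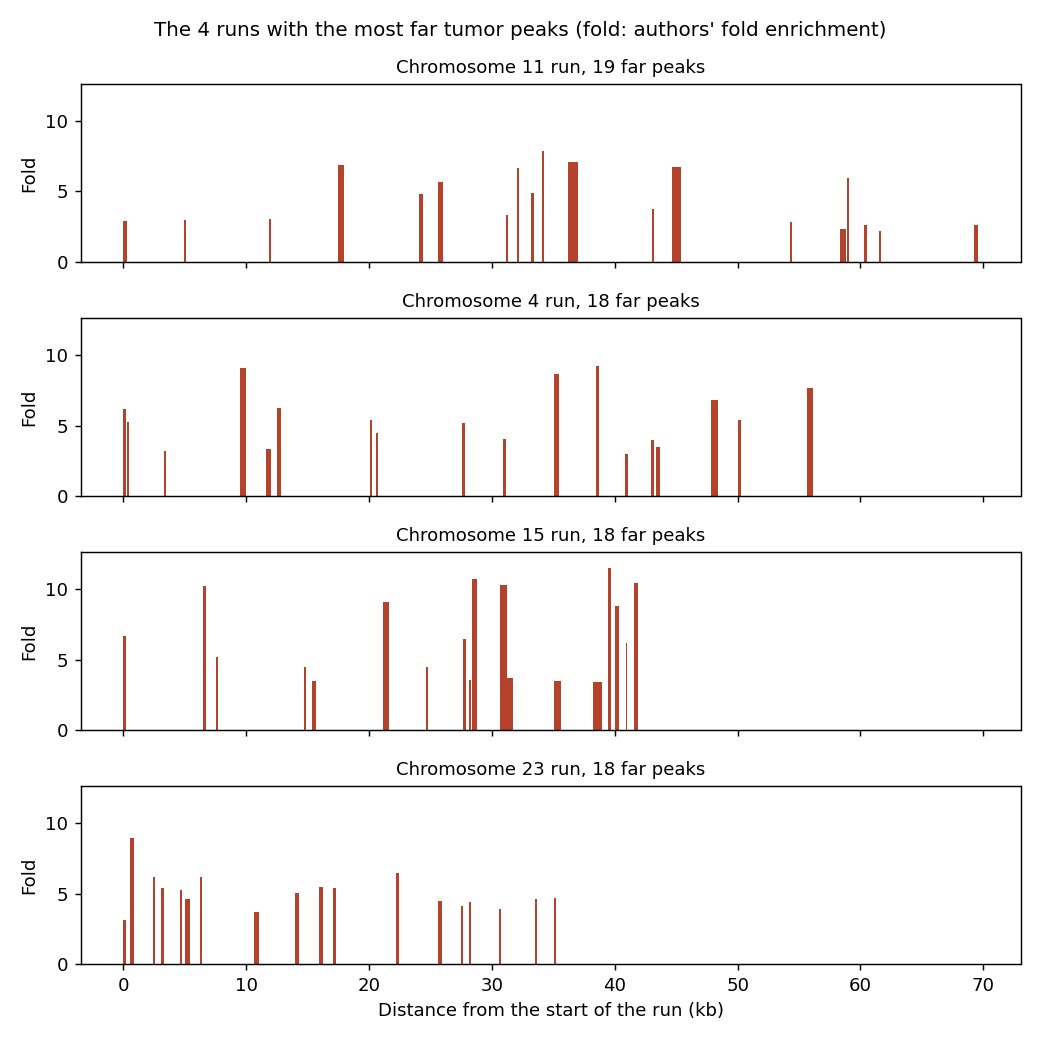
The 4 runs with the most far tumor peaks, on chromosomes 11, 4, 15 and 23, drawn to scale from the start of each run in kb. Each bar is 1 far tumor peak, as wide as the peak and as high as its fold enrichment. The chromosome 15 run reaches the highest fold of the 4 (11.5), and the chromosome 11 run is the longest (69.6 kb).

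Far tumor peaks were narrow, but hardly narrower than other unshared tumor peaks. Their median width was 204 bases (95% interval of the median 201 to 206, quartiles 165 and 275). Other unshared tumor peaks under 800 bases had a median of 209 (208 to 210, quartiles 166 and 284), and tumor peaks under 800 bases on a zcrest peak one of 297 (294 to 299, quartiles 210 and 435). The narrowest peak of the tumor list measured 147 bases. Among peaks under 800 bases, 18.3% of far tumor peaks lay within 10 bases of that floor, as did 17.2% of other unshared tumor peaks and 7.30% of those on a zcrest peak. A width of 300 bases or more, again among peaks under 800 bases, was found for 20.2% (19.4% to 21.0%) of far tumor peaks, 21.9% (21.4% to 22.4%) of other unshared ones and 49.3% (48.6% to 49.9%) of those on a zcrest peak.

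Width changed little with distance once the overlap with a zcrest peak was lost. Among peaks under 800 bases, the median was 210 bases under 1000 bases from a zcrest peak, 209 at 1000 to 5000 bases, 208 at 5000 to 20000 bases, 205 at 20000 to 50000 bases, 200 at 50000 to 100000 bases and 200 at 100000 bases or more. When the unshared tumor peaks under 800 bases were ranked by width into 10 bins of equal number, far tumor peaks made up 27.6% of the narrowest bin, 23.9% (22.5% to 25.3%) of the widest and between 25.3% and 27.8% of each bin between them. The 40 far peaks above the width limit were 0.422% (0.302% to 0.574%) of all far peaks. Among unshared peaks nearer than 20000 bases, 0.612% (0.522% to 0.713%) were 800 bases or wider, and among those on a zcrest peak 5.96%.

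Among peaks under 800 bases, the median fold enrichment was 4.68 (4.65 to 4.71, quartiles 3.71 and 5.91) for far tumor peaks, 5.00 (4.94 to 5.00, quartiles 3.87 and 6.33) for other unshared tumor peaks and 6.82 for those on a zcrest peak. With the same unshared peaks ranked by fold into 10 bins, far tumor peaks formed 30.8% (29.3% to 32.3%) of the lowest bin and 20.4% (19.1% to 21.7%) of the highest. The q-value is the caller's p-value adjusted for multiple testing. A −log10 q of 5 or more was reached by 70.3% (69.4% to 71.2%) of far tumor peaks, 76.7% (76.2% to 77.3%) of other unshared ones and 92.4% of those on a zcrest peak, all under 800 bases. Within classes of fold, the median widths of far and other unshared tumor peaks were 195 and 200 bases at a fold under 4. They were 192 bases in both at 4 to 6, and 231 and 232 at 6 to 10. At a fold of 10 or more the medians were 319 bases for 237 far tumor peaks and 306.5 for 1002 others. The quartiles there were 244 and 431 bases against 244 and 439, so only the median was higher for far tumor peaks.

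**Figure D5:**
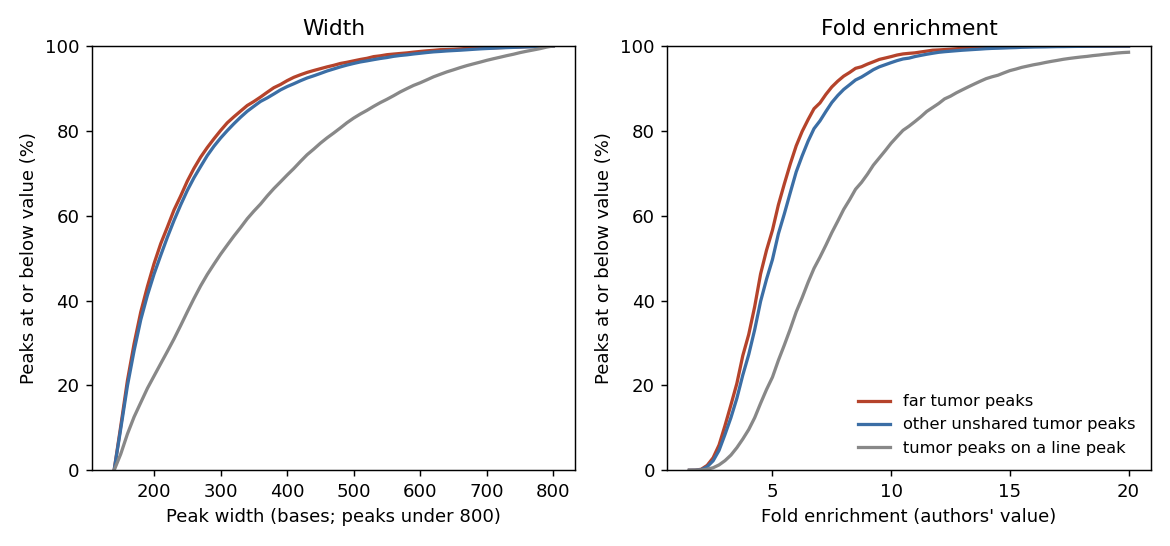
Cumulative share (%) of peaks at or below a given width (left, bases, peaks under 800 bases) and a given fold enrichment (right, the authors' value, peaks of any width) for far tumor peaks (red), other unshared tumor peaks (blue) and tumor peaks on a zcrest peak (grey). The red and blue curves nearly coincide for width (medians 204 and 209 bases) and lie slightly apart for fold, while the grey curves lie to the right in both.

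Far tumor peaks in runs were wider and more enriched than those outside. Their median width was 219 bases (214 to 223) in runs and 196 bases (194 to 199) outside, and their median fold was 4.91 (4.82 to 4.99) in runs and 4.61 (4.50 to 4.63) outside. By size of the group, the median width was 194 bases for single peaks, 202 in pairs, 211 in groups of 3 to 4, 225 in groups of 5 to 9 and 241 in groups of 10 or more. The median fold in the same classes was 4.56, 4.63, 4.77, 5.00 and 5.16. The 3594 far tumor peaks with no tumor peak of any kind within about 13 kb are part of the 3932 single peaks, not a second group. Their medians were 193 bases for width and 4.57 for fold.

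A fold enrichment of 10 or more was reached by 237 far tumor peaks (2.51%, 2.21% to 2.85%), on all 25 chromosomes. Among peaks under 800 bases, it was reached by 3.81% (3.58% to 4.05%) of other unshared tumor peaks and by 21.6% of tumor peaks on a zcrest peak. Of the 237, 135 (57.0%, 50.4% to 63.4%) lay in 109 runs, against 36.7% (35.7% to 37.7%) of the far tumor peaks of lower fold. The share in runs also rose with fold among other unshared tumor peaks under 800 bases. It was 64.0% at a fold under 4, 64.8% at 4 to 6, 69.6% at 6 to 10 and 76.8% at 10 or more.

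The highest fold, 21.8, was that of a peak of 540 bases at chr11:25226887-25227426, in a run of 5. It ranked 224 among all tumor peaks. Next was a peak of 561 bases at chr8:6194654-6195214, with a fold of 20.9, in a run of 5 in a stretch of 526 kb and 196688 bases from the nearest zcrest peak. Of the 10 highest, 3 stood alone. These were at chr4:54539920-54540416 (fold 19.6, with no tumor peak within 101946 bases), chr11:19439620-19439895 (19.1) and chr6:47030761-47031005 (16.3, and 351328 bases from a zcrest peak). The other 5 were at chr12:1071148-1071553 (18.4, in a run of 4), chr2:43587245-43587498 (17.4, run of 6), chr23:38435460-38435726 (16.3, run of 9), chr5:9575396-9576010 (16.2, run of 14) and chr18:4651373-4651715 (16.1, run of 9). The chromosome 5 peak had the highest −log10 q of all far tumor peaks (81.4).

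Sox10, which directs neural crest and pigment cell fates by binding DNA, was mapped in the line and not in the tumor, and the rule did not use its peaks. Of the 4196 sox10 peaks on these chromosomes, 3025 (72.1%) lay in the line-free interior, which made up 54.7% of the span. The 3025 include clustered peaks and are not independent sites, and the difference between these shares was not tested. Far tumor peaks covered 0.305% of the interior. A sox10 peak was overlapped by 6 far tumor peaks (0.064%, 0.023% to 0.138%). Whether this is more or fewer than coverage alone would give was not tested. The same held for 1 of the 26516 other unshared tumor peaks (0.004%, at most 0.021%) and for 10 of the 23808 on a zcrest peak (0.042%, 0.020% to 0.077%). The 6 lay at chr10:12049495-12049660, chr12:16910447-16910609 and chr12:16921840-16921986, chr13:15450806-15451020, chr16:16612645-16612791 and chr4:26154099-26154308. They had folds of 2.94 to 4.44, below the median of far tumor peaks, and none was in a run. Each of the sox10 peaks under them belonged to a cluster of 5 to 181 sox10 peaks at gaps of 5000 bases or less.

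A sox10 peak within 20000 bases was found for 105 far tumor peaks (1.11%, 0.911% to 1.35%), 1.49% (1.34% to 1.64%) of other unshared tumor peaks and 2.16% (1.98% to 2.35%) of those on a zcrest peak. Neighbouring peaks and clustered sox10 peaks are not independent, so these intervals are too narrow.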

How the data were processed

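Chromatin immunoprecipitation libraries of H3K27ac in a primary melanoma, and of H3K27ac and sox10 in the zcrest line, were used as deposited peak lists. The 3 input libraries were not used here. The submitters' processing notes name Bowtie, MACS2 2.0 and the Zv9 build. No source used here gives the Bowtie version, the control or the calling thresholds. The deposited lists give each peak's position, a score, an enrichment ratio (fold over background) and the −log10 of its p-value and q-value. The score was not used, and fold and q were compared within the tumor list. Read depth is unknown, so a missing zcrest peak and a zcrest signal under the calling threshold cannot be told apart.

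Distances were counted in bases between peak edges, with Python 3.11.15, numpy 2.4.6, pandas 2.3.3 and scipy 1.17.1. Chromosome ends were the last peak end over the 3 lists, so assembly gaps and unmappable sequence stayed in the interior. Distances, stitching and interior lengths were checked on simulated data. Shares carry Clopper-Pearson, densities Poisson and medians order-statistic 95% intervals, for counting error alone. Regions named are the 10 far tumor peaks of highest fold, the 10 runs with the most members, the 5 line-free stretches with the most, the 5 most remote peaks and those beside the thresholds. The sixth stretch ties with the fifth, and the longest stretch, the fullest window and the 6 peaks under sox10 were named after their values were seen. The peaks, the rule and the lists were chosen with earlier results of these data known. The contrasts of folds, groups, bins and chromosome parts were added later than the listed alternatives.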

Additional observations from a re-analysis of the deposited data

How the results depend on the processing

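Of 93 alternatives to 10 values, including those chosen after seeing the data, 49 stayed within set bounds and 44 did not. The bounds were the 95% interval of the reported value or, for a count, within 1.5 times of it. The bound for a count is much wider. A count of 6632 far tumor peaks against 9436 stayed inside it, while a median width of 199 bases against 204 fell outside its interval. With a distance of 10000 bases, 14959 peaks at 15.6 per Mb in 5541 stretches were far, 40.8% of them in runs and 68.7% with a tumor peak within about 13 kb, with a median fold of 4.74 and 192 near sox10. With 50000 bases these values were 3564, 8.76 per Mb, 1360, 30.4%, 54.6% and 56, with medians of 200 bases for width and 6.68 for −log10 q. Limiting both lists to a −log10 q of 3 or more gave 9155 far tumor peaks at 12.1 per Mb. Their medians were 207 bases, a fold of 4.89 and a −log10 q of 7.28. The same limit at 5 or more gave 8213 at 10.4 per Mb, 34.7% in runs and 59.3% with a tumor peak within about 13 kb. Their medians were 217 bases, 5.39 and 8.65. A width limit of 500 bases gave 12.3 per Mb, 35.5% in runs and a median of 199 bases. A limit on q acts on the median −log10 q itself, and a limit on width on the median width. The shifts of those medians thus follow in part from the limits.

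Runs held 23.4% of far tumor peaks at a stitching distance of 5000 bases, 48.2% at 25000 bases, 58.3% when set as 2 or more and 17.9% when set as 5 or more. A tumor peak was found within 5000 bases for 45.8% and within 25000 bases for 76.5%. A sox10 peak was found within 5000 bases for 37 far tumor peaks and within 100000 bases for 597. Chosen after seeing the data, limiting the zcrest list alone gave 9973 far tumor peaks, 13.2 per Mb and 38.5% in runs at a −log10 q of 3. At 5 it gave 11466, 14.5 per Mb and 40.8%. Limiting the tumor list alone gave 8655, 11.7 per Mb and 35.6% at 3, and 6632, 8.95 per Mb and 30.6% at 5. The interior is set by the zcrest list, so here the density changed only through the number of far tumor peaks. The cause of the other shifts was not tested.

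Removing the width limit, measuring from summit to summit and leaving out chromosome 4 kept all 9 values computed under each of them inside these bounds. No paired analysis was possible because each group is 1 library.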
